A study of Mus musculus with 9 samples.

Results

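The 8 miRNAs described here come from 4 blood cell hairpins and are the 3p and 5p arms of miR-223, miR-142a, miR-342 and miR-511. They were picked by name, as mmu-miR-223-3p, mmu-miR-223-5p, mmu-miR-142a-3p, mmu-miR-142a-5p, mmu-miR-342-3p, mmu-miR-342-5p, mmu-miR-511-3p and mmu-miR-511-5p, out of 1101 mature miRNAs that had at least 1 count in any library. Between 6 and 8 of them were listed in each library, and a miRNA that a library did not list was taken as 0 counts. The study sequenced small RNA of exosomes, the small vesicles that cells release, from RAW264.7 cells, an established mouse macrophage line. Of the 9 libraries, 3 came from untreated cells, 3 from cells given silica for 24 h and 3 from cells given silica for 48 h, and the comparisons ask how silica changes the miRNA of the vesicles. All 3 groups were grown in DMEM with fetal bovine serum, the vesicles were spun down by ultracentrifugation and the RNA was taken up in Trizol. The silica dose, the particle size, whether the serum was cleared of its own vesicles and how long the untreated cells were cultured are not given in the sources used here. All values are from 1 cell line, and the repetitions are described as independent with no word on which step was repeated, so the p-values below measure only the spread between these libraries.

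A miRNA is cut from a hairpin RNA that can give a mature strand from either arm, and the bases 2 to 8 of that strand, the seed, choose the messenger RNAs it silences. miR-223 is a miRNA of myeloid cells that is known to restrain the inflammasome sensor NLRP3, the sensor that silica crystals set off in macrophages. miR-142 is made in nearly all blood cell lineages, miR-342 rises in myeloid differentiation and lies inside the gene Evl, and miR-511 lies inside Mrc1, the gene of the macrophage mannose receptor, and is made along with it. Macrophages load such miRNAs into vesicles, which other cells can take up.

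The mature sequences are shown because the seed sets each strand's targets. They are from RefSeq on GRCm38.p6, the build of the submitters' mm10, which held 7 of the 8 members. They are written 5′ to 3′ with the seed in capitals.
mmu-miR-223-3p: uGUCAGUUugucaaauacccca
mmu-miR-223-5p: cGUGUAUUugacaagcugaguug
mmu-miR-142a-3p: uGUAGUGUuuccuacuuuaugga
mmu-miR-142a-5p: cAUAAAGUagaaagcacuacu
mmu-miR-342-3p: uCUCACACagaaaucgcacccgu
mmu-miR-342-5p: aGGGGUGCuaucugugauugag
mmu-miR-511-3p: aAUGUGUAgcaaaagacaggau
No 2 of these 7 shared a seed, and 0 other mature mouse miRNAs of the table had the seed of any of them. The sequences are 21 to 23 bases long, so no length correction was used. How evenly the different sequences were captured as reads was not measured here, so the ranks and arm shares below compare read counts.

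The hairpins give the place of the arms in the genome, here with the mature arms listed above in capitals. Mir511 has only its listed arm in capitals. Its other arm, for which no sequence was held, is in lower case and not marked. Coordinates are on GRCm38, and the genes around them are from the GENCODE annotation.
Mir223: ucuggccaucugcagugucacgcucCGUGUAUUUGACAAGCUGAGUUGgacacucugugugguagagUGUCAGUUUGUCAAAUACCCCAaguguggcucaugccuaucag
Mir142: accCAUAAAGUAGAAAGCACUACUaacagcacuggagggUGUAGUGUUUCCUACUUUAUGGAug
Mir342: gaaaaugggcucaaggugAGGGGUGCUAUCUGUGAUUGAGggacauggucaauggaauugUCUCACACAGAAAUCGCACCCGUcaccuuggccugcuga
Mir511: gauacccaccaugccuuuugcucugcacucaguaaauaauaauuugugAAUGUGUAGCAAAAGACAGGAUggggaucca
Mir223 lies at chrX:96242817-96242926 on the plus strand, in an exon of the non-coding gene F630028O10Rik. Mir142 lies at chr11:87756864-87756927 on the plus strand, in an intron of the non-coding host gene Mir142hg. Mir342 lies at chr12:108658620-108658718 on the plus strand, in an intron of Evl. Mir511 lies at chr2:14261003-14261081 on the plus strand, in an intron of Mrc1.

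The Mir142 hairpin also has a partner on the opposite strand, Mir142b, at chr11:87756841-87756955. Its mature product is shown because it pairs with miR-142a-3p base for base.
mmu-miR-142b: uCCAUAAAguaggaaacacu
All 20 bases of miR-142b lie within the reverse complement of miR-142a-3p, and its longest run shared with miR-142a-5p was 10 bases. It had 274 counts over the 9 libraries, which is 6.14% of the counts of miR-142a-3p. The sources used here do not say whether the strand of a read was used in counting, and without strand the reads of miR-142a-3p and miR-142b cannot be told apart.

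Depth set a floor under these values. Mature miRNA made up 28.0% to 44.7% of the counts of all RNA classes, or 2158418 counts in the 24 h library 3 up to 8331451 in the 48 h library 2. A count of 0 allows up to 3 counts, which is 0.360 to 1.39 CPM (counts scaled to a mature miRNA total of 1000000) depending on the library. Levels below are CPM after TMM scaling. Among the libraries, untreated 2 and 48 h 2 listed the most miRNAs, 829 and 912, and stood apart from the other libraries at -1.19 and -1.12 on the first axis of a multidimensional scaling of all tested miRNAs. The 24 h library 3, the shallowest, lay at the other end of that axis, at 1.13, with the lowest value of the second axis, -0.68. The values of miR-142a, which was highest in the libraries numbered 2, are given with and without them.

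The 8 miRNAs together made up a small part of the vesicle miRNA, between 0.0728% of mature counts in the untreated library 3 and 0.183% in the 24 h library 1. The untreated libraries 1, 2 and 3 had 0.130%, 0.117% and 0.0728%. The 24 h libraries had 0.183%, 0.163% and 0.111%, and the 48 h libraries had 0.131%, 0.149% and 0.0809%. The highest share was in a 24 h library, and all 3 groups overlapped.

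By mean level over the 9 libraries, miR-342-3p led with 697 CPM and rank 67 of all mature miRNAs. It was followed by miR-342-5p with 275 CPM and rank 99, miR-223-3p with 126 CPM and rank 130, miR-142a-5p with 88.7 CPM and rank 147, miR-142a-3p with 74.2 CPM and rank 161, and miR-223-5p with 5.86 CPM and rank 338. The miR-511 arms came last, with 20 counts in all for miR-511-3p, at rank 637, and 1 count in each of 2 libraries for miR-511-5p, at rank 975. The 6 miRNAs above miR-511 were listed in all 9 libraries, at ranks of 67 to 338 by mean level.

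The steps in that order were not all larger than the spread between libraries. miR-342-3p exceeded miR-342-5p in 8 of 9 libraries, by 1.26 ± 0.92 on the log2 CPM scale (SD over libraries, n = 9), and the untreated library 2 was the exception. miR-342-5p exceeded miR-223-3p in 8 of 9 libraries, by 1.16 ± 0.78. miR-223-3p and miR-142a-5p were not separated beyond their spread, with a difference of 0.75 ± 1.26 and miR-223-3p ahead in 5 of 9 libraries. The same held for the miR-142a arms, where miR-142a-5p was ahead in 7 of 9 libraries by 0.51 ± 0.62. The step down to miR-223-5p was present in all 9 libraries, at 3.68 ± 2.08 below miR-142a-3p.

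**Figure D1:**
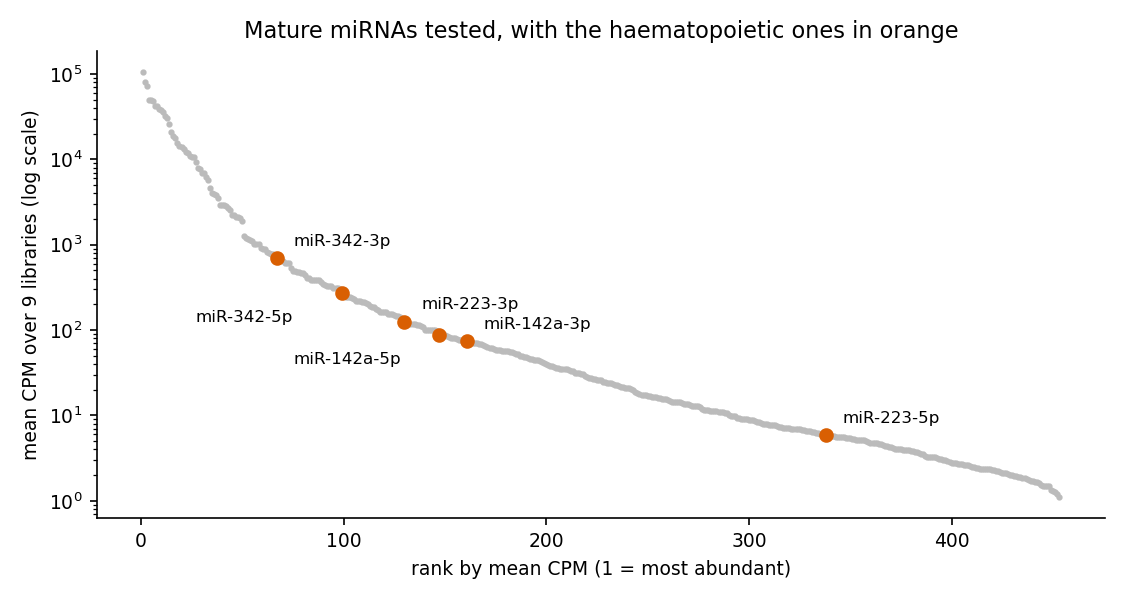
Mean CPM over the 9 libraries (log scale) of each of the 453 tested mature miRNAs against its rank. Grey points are all tested miRNAs and orange points are the 6 tested haematopoietic ones, which run from miR-342-3p at 697 CPM to miR-223-5p at 5.86 CPM.

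miR-342-3p, the strand of miR-342 known from myeloid differentiation, was the most abundant member in 8 of 9 libraries. It stood at 713, 225 and 394 CPM in the untreated libraries 1, 2 and 3, at 1319, 679 and 824 CPM in the 24 h libraries, and at 1174, 528 and 416 CPM in the 48 h libraries. Library 1 was the highest of each group, and the untreated library 1 lay above the 24 h library 2, so that the groups overlapped. miR-342-5p, the other arm, stood at 469, 283 and 152 CPM untreated, at 345, 397 and 234 CPM at 24 h, and at 180 (179.8), 148 and 264 CPM at 48 h. The untreated libraries alone spanned nearly the full range of this arm, from 152 to 469 CPM.

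miR-223-3p, the dominant strand of the NLRP3-restraining hairpin, stood at 113, 153 and 54.0 CPM untreated, at 168, 184 and 143 CPM at 24 h, and at 119, 152 and 44.7 CPM at 48 h. Its 24 h libraries were close to each other and included the highest value, while library 3 was the lowest of every group. The untreated library 2 lay above the 24 h library 3, so that the groups overlapped. miR-223-5p, its rarer partner, stood at 19.2, 6.83 and 1.36 CPM untreated, at 8.01, 4.14 and 2.07 CPM at 24 h, and at 7.51, 3.14 and 0.461 CPM at 48 h. In every group library 1 was the highest and library 3 the lowest. The lowest value rests on 2 counts, fewer than the 3 that a library with 0 counts allows.

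miR-142a-3p, the strand made across blood cells, stood at 29.8, 187 and 43.4 CPM untreated, at 16.5, 47.2 and 14.5 CPM at 24 h, and at 49.997, 241 and 38.0 CPM at 48 h. The untreated library 2 and the 48 h library 2, the libraries that stood apart, were far above the other 7. miR-142a-5p stood at 34.6, 154 and 85.6 CPM untreated, at 41.6, 131 and 19.2 CPM at 24 h, and at 52.3, 226 and 54.2 CPM at 48 h. Library 2 was the highest of each group for both arms, and all groups overlapped.

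miR-511 was at the edge of detection in these vesicles. miR-511-3p had 0, 5 and 0 counts in the untreated libraries, 8, 0 and 2 counts at 24 h, and 0, 5 and 0 counts at 48 h. It was thus found in 4 of 9 libraries, at most at 2.07 CPM in the 24 h library 1, and the 5 libraries with 0 counts each allow up to 3 counts. miR-511-5p had 1 count in the untreated library 2 and 1 count in the 48 h library 2, each fewer than the 3 that a library with 0 counts allows. Neither arm passed the filter on low counts, so neither was tested, and a difference between groups was not detectable at this depth.

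**Figure D2:**
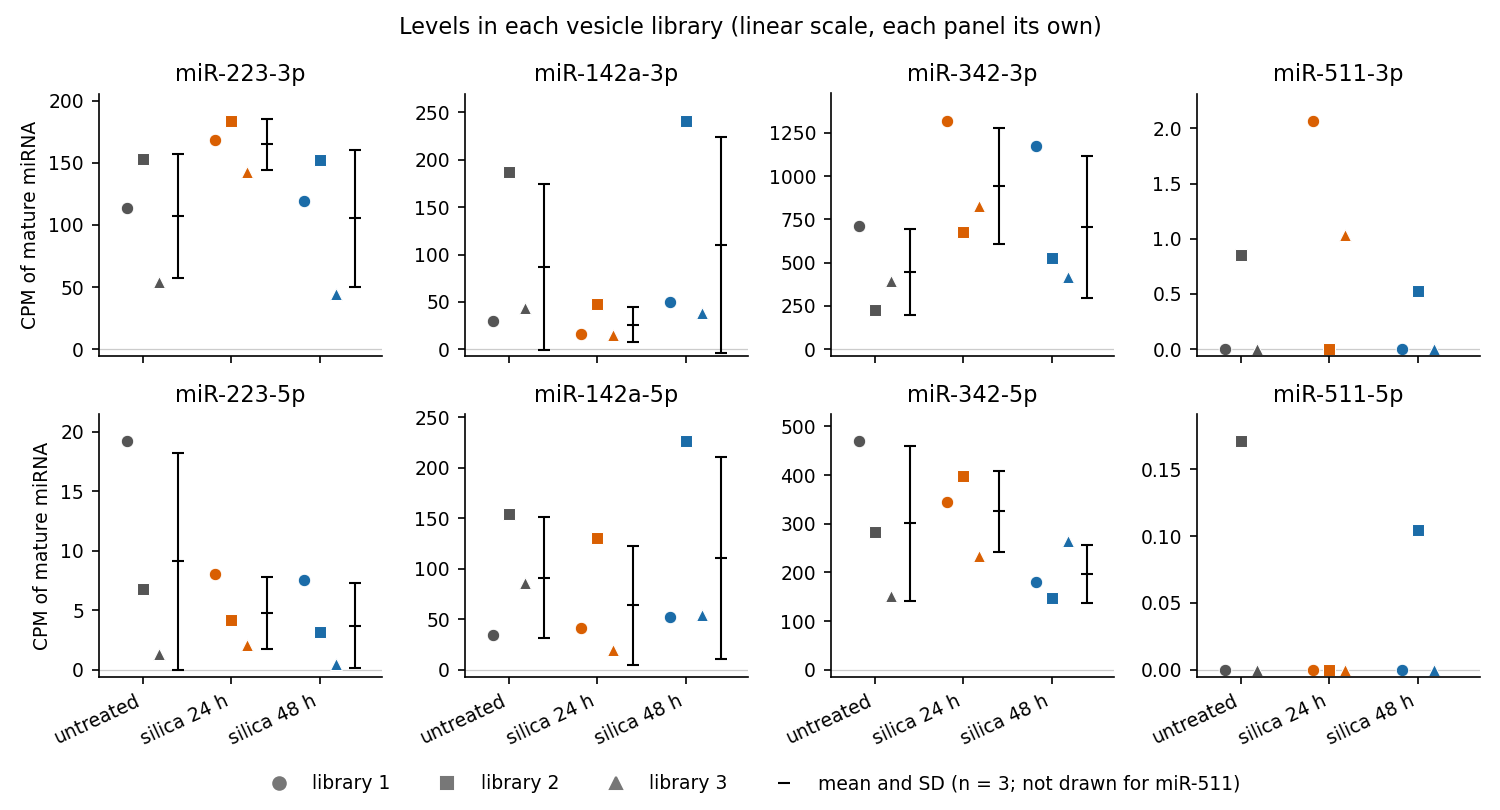
CPM of each of the 8 miRNAs in every library (linear axis, scaled per panel), with circles, squares and triangles for libraries 1, 2 and 3 and, beside them, the mean with its SD over the 3 libraries for the members that were tested. The square of library 2 lies far above the other points for miR-142a-3p in the untreated and 48 h groups, and the miR-511 panels hold mostly points at 0.

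The spread between libraries of 1 group differed among the members. The within-group SD of log2 CPM was 0.58 for miR-342-5p, 0.71 (0.705) for miR-223-3p and 0.72 for miR-342-3p, all below the median of 0.99 over the 453 tested miRNAs. It was 1.23 for miR-142a-5p, 1.27 for miR-142a-3p and 1.47 for miR-223-5p, all above that median. From the lowest to the highest library, the level differed by 3.16 times for miR-342-5p, 4.11 times for miR-223-3p, 5.87 times for miR-342-3p, 11.8 times for miR-142a-5p, 16.6 times for miR-142a-3p and 41.6 times for miR-223-5p.

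After 24 h of silica, miR-342-3p and miR-223-3p had higher mean levels than in untreated cells and miR-142a-3p a lower one, but none of the 6 tested members passed the test. The quasi-likelihood test of edgeR, adjusted by Benjamini-Hochberg over 453 miRNAs, called 0 members and 0 miRNAs in all, or 0% of those tested. At an unadjusted p under 0.05 it had 46 miRNAs, or 10.2%, and 0 members. Groups that did not overlap were found for 75 miRNAs, or 16.6%, and for 0 members. DESeq2 called 3 miRNAs and limma-voom 0, with 0 members in each. With the replicate number as a block, a pairing that was not established, edgeR called 3 miRNAs and 0 members.

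Among the members, the mean of miR-342-3p was 941 ± 335 CPM at 24 h against 444 ± 248 CPM untreated (SD, n = 3 each), a fitted log2 fold change of 1.08 ± 0.61 (SE) with a 95% interval of -0.26 to 2.43 and an edgeR adjusted p of 0.543. That of miR-223-3p was 165 ± 20.8 CPM against 107 ± 49.9 CPM, with a log2 fold change of 0.63 ± 0.61, an interval of -0.71 to 1.96 and an edgeR adjusted p of 0.726. miR-142a-3p was at 26.1 ± 18.3 CPM against 86.9 ± 87.4 CPM, with a log2 fold change of -1.73 ± 0.93, an interval of -3.76 to 0.30 and an edgeR adjusted p of 0.543. The size of the miR-142a-3p value depended on the libraries numbered 2: without the untreated library 2 it was -0.44, with an edgeR adjusted p of 0.992, and without that library and the 48 h library 2 it was -0.47. Without library 2 of all 3 groups it was -1.41, with an edgeR adjusted p of 0.372. In libraries of the same number, miR-142a-3p was lower at 24 h in 3 of 3 pairs, and miR-342-3p and miR-223-3p were higher in 3 of 3. miR-223-5p, miR-142a-5p and miR-342-5p went both ways. This pairing was not established, and the share of all tested miRNAs with 1 direction in 3 of 3 was not worked out. The other arms had log2 fold changes of 0.11 ± 0.56 for miR-342-5p, -0.51 ± 0.86 for miR-142a-5p and -0.93 ± 1.13 for miR-223-5p, with edgeR adjusted p from 0.806 to 0.936. The 6 members divided into 3 above and 3 below 0, with a median log2 fold change of -0.20 beside -0.07 over all 453 miRNAs. CPM are shares within a library and do not give the amount of a miRNA or of vesicles. In vesicle RNA of a whole culture, more or fewer vesicles carrying a miRNA and more or fewer copies in each cannot be told apart. The same holds for the number of cells that release it and the amount released per cell.

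After 48 h of silica, the mean of miR-223-3p lay near that of untreated cells, while miR-342-3p had a higher mean and miR-342-5p and miR-223-5p lower ones, and none of the 6 tested members passed the test. edgeR's quasi-likelihood test called 0 members and 0 of 453 miRNAs, or 0%, with 4 miRNAs, or 0.883%, and 0 members at an unadjusted p under 0.05. Groups that did not overlap were found for 17 miRNAs, or 3.75%, and for 0 members, and DESeq2 and limma-voom each called 0 miRNAs. The mean of miR-223-3p was 105 ± 55.1 CPM against 107 ± 49.9 CPM, with a log2 fold change of -0.02 ± 0.61 and an interval of -1.35 to 1.31 that holds changes of over 2-fold either way.

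For the other arms at 48 h against untreated, miR-342-3p was at 706 ± 409 CPM against 444 ± 248 CPM, a log2 fold change of 0.67 ± 0.61. miR-342-5p was at 197 ± 59.7 CPM against 302 (301.5) ± 159 CPM, a log2 fold change of -0.61 ± 0.57, so that the arms of this hairpin had values of opposite sign. miR-142a-3p and miR-142a-5p had log2 fold changes of 0.34 ± 0.90 and 0.28 ± 0.86, which moved either way with 1 library: without the 48 h library 2 they were -1.05 (-1.045) and -0.83, and without the untreated library 2 they were 1.60 and 0.90. Without both they were 0.26 and -0.18, and without library 2 of all 3 groups 0.17 and -0.25. miR-223-5p had -1.31 ± 1.14, from 3.71 ± 3.56 CPM against 9.12 ± 9.13 CPM. The edgeR adjusted p of all 6 was 0.997, and their median log2 fold change was 0.13 beside 0.03 over all tested miRNAs.

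Between 24 h and 48 h of silica, miR-142a-3p had the greatest difference of the members. Its mean was 109.7 ± 114 CPM at 48 h against 26.1 ± 18.3 CPM at 24 h, a fold change of 4.19 and a log2 fold change of 2.07 ± 0.94 with an interval of 0.01 to 4.12. It was the 1 member among 44 miRNAs, or 9.71% of those tested, at an unadjusted p under 0.05, with a p of 0.0488 in edgeR, and its adjusted p was 0.458. Without the 48 h library 2 its log2 fold change was 0.72 with an edgeR adjusted p of 0.907, and without that library and the untreated library 2 it was 0.73. Without library 2 of all 3 groups it was 1.58, with an edgeR adjusted p of 0.338. edgeR called 0 members and 0 miRNAs, or 0%, after adjustment. DESeq2 called 6 miRNAs and limma-voom 0, with 0 members in each. Groups that did not overlap were found for 94 miRNAs, or 20.8%, and for 0 members.

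The other members had smaller differences between the silica times. miR-142a-5p had a log2 fold change of 0.79 ± 0.86 and became -0.29 without the 48 h library 2, but 0.88 without library 2 of all 3 groups. miR-223-3p had -0.65 ± 0.61, miR-342-5p -0.72 ± 0.57, miR-342-3p -0.41 ± 0.61 and miR-223-5p -0.38 ± 1.14, with edgeR adjusted p of 0.612 to 0.868 for these 4. In all, 2 members were above and 4 below 0, with a median of -0.40 beside 0.14 over all tested miRNAs. The 3 comparisons share groups of libraries, so a high value at 24 h appears in 2 of them. miR-142b, from the opposite strand of the Mir142 hairpin, had log2 fold changes of -0.92, 0.03 and 0.95 in the 3 comparisons, with edgeR adjusted p of 0.749, 0.997 and 0.688.

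**Figure D3:**
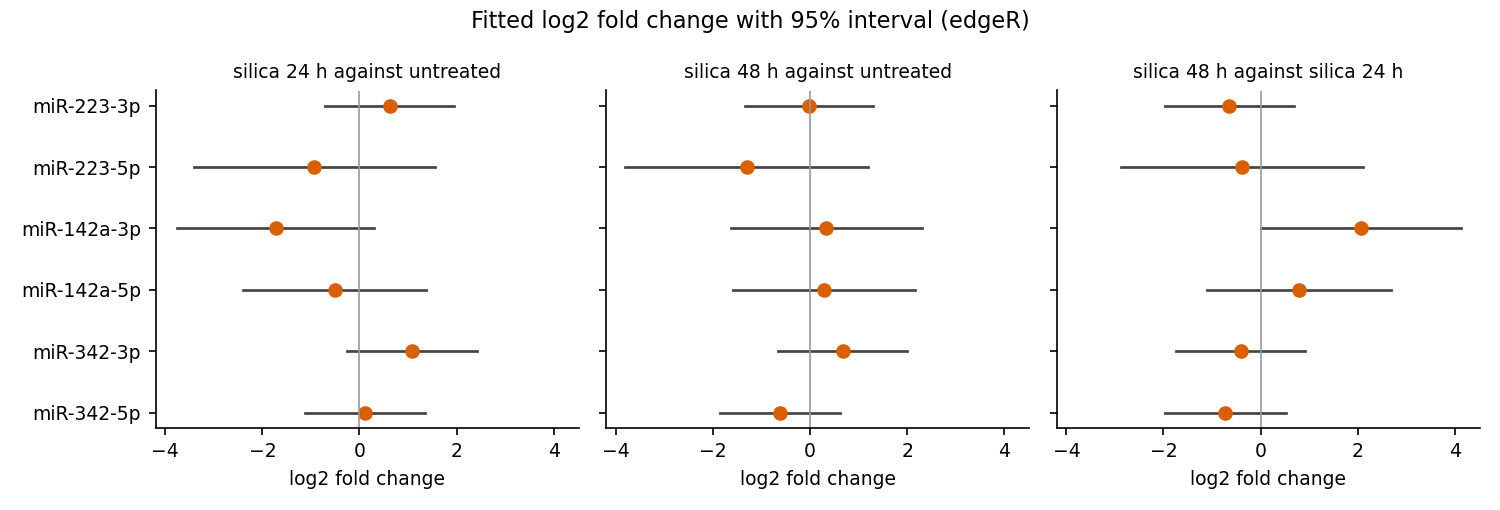
Fitted log2 fold change (points) with its 95% interval (lines) from edgeR for the 6 tested members in each of the 3 comparisons. The intervals cross 0 except that of miR-142a-3p at 48 h against 24 h, which runs from 0.01 to 4.12.

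Both arms of a hairpin come from 1 transcript, and the ratio of their counts within a library does not depend on how libraries are scaled. The 3p arm of mir-223 held 85.5%, 95.7% and 97.5% of both arms in the untreated libraries, 95.5%, 97.8% and 98.6% at 24 h, and 94.1%, 98.0% and 99.0% at 48 h. The untreated library 1 was the lowest, and miR-223-3p was the main strand in all 9 libraries. The widths of the 95% exact binomial intervals were 1.51 to 5.30 percentage points, which cover counting error only.

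mir-142a was the hairpin with the most even arms. Its 3p arm held 46.2%, 54.9% and 33.6% untreated, 28.4%, 26.5% and 43.1% at 24 h, and 48.9%, 51.6% and 41.3% (41.25%) at 48 h. miR-142a-5p was thus the more counted arm in 7 of 9 libraries, and the untreated library 2 and the 48 h library 2 were the exceptions. The interval of the 24 h library 3, which had 28 counts of the 3p arm and 37 of the 5p arm, was 25.1 percentage points wide. For mir-342 the 3p arm held 60.3%, 44.2% and 72.2% untreated, 79.2%, 63.1% and 77.9% at 24 h, and 86.7%, 78.1% and 61.2% at 48 h. The 5p arm was ahead in the untreated library 2 alone.

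No change of the arm share with silica passed a test, and 3 against 3 libraries cannot give an exact permutation p under 0.1. At 24 h against untreated, the mean 3p share of mir-342 was 73.4% ± 8.97 against 58.9% ± 14.0, that of mir-142a 32.7% ± 9.05 against 44.9% ± 10.7 and that of mir-223 97.3% ± 1.62 against 92.9% ± 6.47 (SD, n = 3 each, exact permutation p 0.2, 0.2 and 0.4, two-sided). At 48 h the means were 75.3% ± 13.0 for mir-342, 47.2% ± 5.37 for mir-142a and 97.0% ± 2.60 for mir-223. The exact permutation p was 0.2, 0.8 and 0.5 against untreated and 0.9, 0.2 and 0.9 against 24 h. Without library 2 of all 3 groups, the difference at 24 h against untreated was 12.3 percentage points for mir-342 and -4.17 for mir-142a, beside 14.5 and -12.2 with them, and at 48 h against untreated it was 7.73 points for mir-342, beside 16.4. Over the 9 tests the Benjamini-Hochberg adjusted exact permutation p ran from 0.45 to 0.9.

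**Figure D4:**
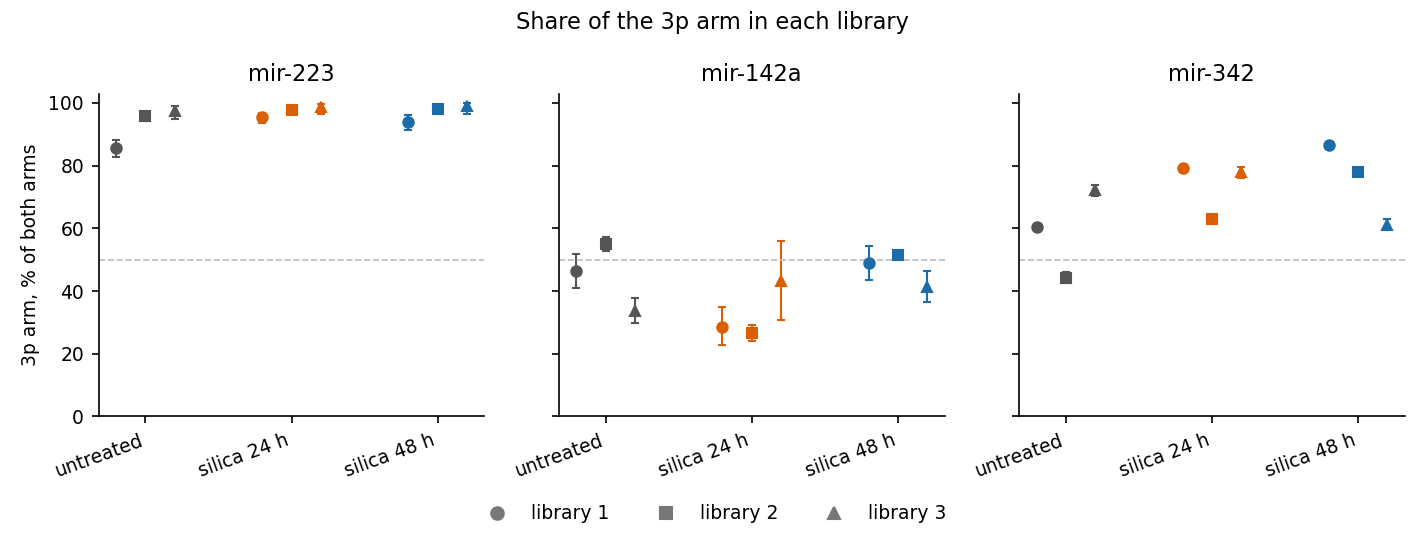
Share of the 3p arm in the counts of both arms (%) for mir-223, mir-142a and mir-342 in each library, with 95% exact binomial intervals as bars and a dashed line where both arms are equal. All mir-223 points lie at 85.5% or above, while the mir-142a points lie between 26.5% and 54.9%.

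The arms of mir-142a were high and low in the same libraries, and for mir-342 no such relation passed the test. Across the 9 libraries, the log2 CPM of miR-142a-3p and miR-142a-5p had a Pearson r of 0.895 (exact permutation p 0.000471, adjusted over 3 hairpins 0.00141) and a Spearman rho of 0.883 (exact permutation p 0.00308, adjusted 0.00923). Without the untreated library 2 and the 48 h library 2, the farthest from the median, r was 0.787, and after the group means were taken out it was 0.912. For mir-223, r was 0.686 (exact permutation p 0.0435, adjusted 0.0653) and rho 0.417 (exact permutation p 0.270), and r was 0.809 after the group means were taken out. Without the untreated library 3 and the 48 h library 3, the farthest from the median, it was -0.499, so the relation over all libraries did not hold without them. For mir-342, r was 0.167 (exact permutation p 0.665) and rho 0.217 (exact permutation p 0.581), with an r of 0.184 without the 2 farthest libraries. These values share the depth and scaling of their libraries, and the permutation treats the 9 libraries as exchangeable. An r of this size with miR-142a-5p was also found for some miRNAs of other hairpins. It was 0.943 for miR-374b-5p, 0.920 for miR-30e-5p and 0.914 for miR-140-5p, above that of miR-142a-3p. These were picked as the highest of 288 candidates, and the place of miR-142a-3p among the candidates was not worked out.

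Between hairpins the relations were less steady. As a description over 9 libraries, with the same scaling in each pair, the r of log2 CPM was -0.63 for miR-142a-3p and miR-342-3p, 0.13 for miR-223-3p and miR-142a-3p, and 0.35 for miR-223-3p and miR-342-3p. After the group means were taken out these were -0.57, 0.66 and 0.13. Without the untreated library 2 and the 48 h library 2 they were -0.42, -0.38 and 0.80. Of these pairs only the first kept its sign and a size above 0.4 in each form. Among the other pairs of different hairpins, miR-223-5p and miR-342-5p also did, at 0.50, 0.45 and 0.53. In the untreated library 2, miR-142a-3p was far above its own mean there, while miR-342-3p had its lowest value, 225 CPM.

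**Figure D5:**
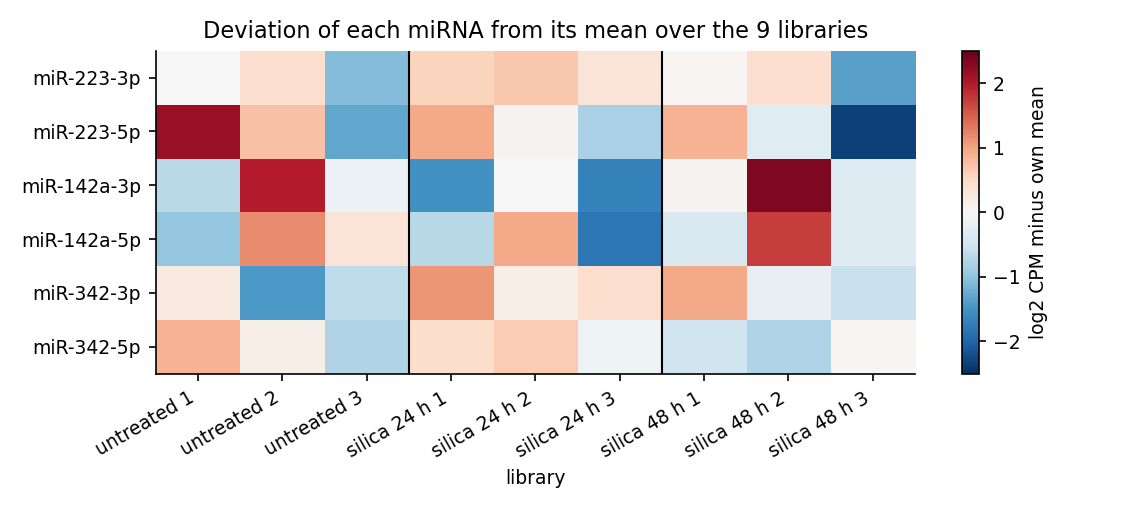
Log2 CPM of each tested member minus its own mean over the 9 libraries, with libraries in columns, groups divided by black lines, red for above and blue for below the mean. The darkest red cells of miR-142a-3p are the untreated library 2 and the 48 h library 2, and miR-342-3p is blue in the former.

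The miRNAs whose levels followed the members most closely were sought among those with a mean of at least 10 CPM, by r of log2 CPM over the 9 libraries. For miR-223-3p they were miR-744-3p at 0.936, miR-191-5p at 0.901 and miR-425-3p at 0.814. For miR-142a-5p, the more abundant arm, they were miR-374b-5p at 0.943, miR-30e-5p at 0.920 and miR-140-5p at 0.914. For miR-342-3p they were miR-212-3p at 0.918, let-7c-5p at 0.841 and miR-411-5p at 0.811. The 3 sets had no miRNA in common, and they are the highest of 288 or 289 candidates each.

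Other miRNAs known from blood cells and macrophages ranged from far above to below the members. Of 26 on that list 25 were listed and 24 tested, 15 had a higher mean than miR-342-3p and 22 a higher mean than miR-223-3p. The most abundant were miR-23a-3p with a mean of 73221 CPM, miR-222-3p with 49902, miR-146a-5p with 49713, miR-27a-3p with 48610, miR-24-3p with 41932 and miR-21a-5p with 37924. miR-146a-5p and miR-155-5p, which had 800.4 CPM, are miRNAs of the inflammatory response of macrophages, and miR-21a-5p is a miRNA of activated cells of many kinds. edgeR called 0 of the 24 in each comparison, with 1, 0 and 3 at an unadjusted p under 0.05. Over all 453 tested miRNAs that share was 10.2%, 0.883% and 9.71%. Their log2 fold changes in the 3 comparisons were above 0 for 10, 17 and 16 of the list and below 0 for 14, 7 and 8. The medians of the list were -0.12, 0.17 and 0.17. Over all tested miRNAs 211, 238 and 245 were above 0 and 242, 215 and 208 below, with medians of -0.07, 0.03 and 0.14.

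Within that list, miR-24-3p and miR-22-3p had the lowest p at 24 h against untreated and at 48 h against 24 h, and miR-125a-5p and miR-125b-5p at 48 h against untreated. miR-24-3p was at 11613 ± 1392 CPM at 24 h against 55576 ± 56836 untreated, a log2 fold change of -2.26 ± 0.75 with an edgeR adjusted p of 0.386. miR-22-3p was at 35828 ± 10296 CPM at 48 h against 16075 ± 2531 at 24 h, a log2 fold change of 1.16 ± 0.37 with an edgeR adjusted p of 0.404. miR-125a-5p and miR-125b-5p had log2 fold changes of 1.10 and 0.77 at 48 h against untreated, each with an edgeR adjusted p of 0.997.

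Markers of other sources were present beside the blood cell miRNAs. All 4 erythroid, serum and liver markers were listed, led by the liver miRNA miR-122-5p with a mean of 1154 CPM, and their summed level was 406 to 1859 CPM untreated, 2131 to 5645 CPM at 24 h and 1197 to 1723 CPM at 48 h. The 24 h libraries thus lay above all others for this sum. Of the 3 markers tested, 1 had groups that did not overlap at 24 h against untreated, and 3 at 48 h against 24 h. Over all tested miRNAs these shares were 16.6% and 20.8%. For miR-122-5p the 24 h library 2, at 1253 CPM, lay below the untreated library 3, at 1296 CPM. miR-451a, also of this list, was at 630, 148 and 556 CPM untreated and at 1605, 872 and 3380 CPM at 24 h. At 48 h it was at 762, 786 and 409 CPM. Its 24 h libraries lay above all others, and the highest was the 24 h library 3, the shallowest. At 24 h miR-342-3p and miR-223-3p had their highest means, 941 and 165 CPM, and a link to these markers was not tested. The lymphocyte markers, 2 of 2 listed and led by miR-150-5p at 21.6 CPM, summed to 5.64 to 37.4, 16.1 to 59.6 and 3.23 to 28.6 CPM in the 3 groups. The mesenchymal and endothelial markers, 6 of 6 listed and led by miR-126a-3p, summed to 408 to 2240, 614 to 1599 and 523 to 1022 CPM. The libraries with these highest sums had miR-199a-3p at 1526, 599 and 583 CPM. There miR-199b-3p, which is not on the list, was at 16.8, 15.8 and 64.0 CPM. In the untreated library 1 the levels were 9.68 CPM for miR-199a-3p and 540 CPM for miR-199b-3p. The range of this sum thus depends on which of them the counts fell to, and why was not tested. The epithelial markers, 8 of 8 listed, summed to 211 to 307, 187 to 287 and 227 to 333 CPM, and the muscle and neuron markers, 5 of 5 listed, to 70.4 to 181, 82.4 to 234 and 73.1 to 113 CPM. No marker was at 0 in all libraries, and the part of these other sources in the members' values was not tested. For the labelled macrophage line, miR-223, miR-142a, miR-155, miR-146a and miR-21a were listed in all 9 libraries. miR-511-3p, which shares its gene with the macrophage mannose receptor, was at 0 in 5 of 9 libraries, and miR-147-3p of the blood cell list was at 0 in all 9.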

How the data were processed

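Small RNA of vesicles in 9 samples was counted, with 1 table per library. Per the submitters' processing notes, Trim Galore, Bowtie, HTSeq and the build mm10 were used; versions, roles, strand use and the handling of reads with several matches were not stated there. The deposited tables hold, per the file headers, a read count per small RNA and a column the headers call TPM, which is the count scaled to a library total of 1000000 (RPM, matched within 0.005) with no length term. The authors' RPM was not tested, and RPM of precursor rows was recomputed the same way. Counts of class mature were taken as deposited, and unlisted miRNAs were set to 0.

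edgeR 4.0.16 (R 4.3.3) filtered with filterByExpr at a minimum count of 10, which kept 453 of 1101 miRNAs and at least 99.96% of each library's mature counts. TMM factors ran from 0.829 to 1.16, and the quasi-likelihood fit used all 9 libraries with 6 residual degrees of freedom. The biological coefficient of variation, as the root of the common dispersion, came to 0.756. The standard error is the absolute log2 fold change over the root of F. p-values were Benjamini-Hochberg adjusted over the 453 miRNAs, with a threshold of 0.05, and the log2 CPM used for relations had a prior count of 2. The script was tested on simulated data. Arm shares were tested by two-sided exact permutation (SciPy 1.17.1) for hairpins with at least 20 counts in each library.

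Same-numbered libraries deviated together with r of 0.136, 0.439 and 0.149 for 24 h and untreated, 0.152, 0.636 and 0.315 for 48 h and untreated, and -0.0679, 0.289 and 0.253 for 48 h and 24 h. Libraries of different number ran from -0.532, for untreated 2 and 48 h 3, to 0.360, for untreated 1 and 48 h 3. The untreated library 1 had r of 0.160 and 0.360 with the 24 h and 48 h libraries 3. With the libraries numbered 1 it had 0.136 and 0.152. Of the 9 same-numbered pairs, 8 had an r above 0.1, and whether libraries of 1 number shared a step was not tested. The labels do not say what the replicate number marks. Pairing by it was therefore not established, and the replicate block is 1 of the alternatives. No 2 libraries of a group agreed within sampling noise.

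The members and lists were chosen with earlier results of these data known. Named miRNAs are the 8 members, the 6 most abundant of the blood cell list and its 2 lowest p per comparison, the 3 most alike miRNAs per hairpin, shared seeds, opposite-strand miRNAs and the top of each marker list. miR-155-5p was named after its value was seen. Alternatives were other scalings, no filter, DESeq2 1.42.0, limma-voom 3.58.1, the replicate block, a fit of 2 groups only, each library left out, and pooled arm shares; leaving out the untreated library 2 and the 48 h library 2 together, or library 2 of all 3 groups, was chosen after seeing the data.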

Additional observations from a re-analysis of the deposited data

How the results depend on the processing

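With 9 libraries and 3 per group, SEs of 0.56 to 1.14 limit what could be called, miR-511 lies at the floor of the depth, and 0 members were called in any of 20 alternatives per comparison (lowest adjusted p 0.0934). Of the member log2 fold changes recomputed, 339 kept their sign and 21 reversed, and 10 of 18 results never changed it. The count of miRNAs called at 24 h against untreated, 0, became 1 with upper-quartile scaling, 7 with no filter, 3 with DESeq2, 3 with the replicate block, 1 with only the 2 groups compared, and 0 to 1 when each library was left out. At 48 h against untreated it became 1 with no filter and stayed 0 with the replicate block. At 48 h against 24 h it became 16 with no filter, 6 with DESeq2, 3 with the replicate block and 0 to 1 when each library was left out. In the replicate block, miR-142a-3p had log2 fold changes of -1.48 (edgeR adjusted p 0.180) at 24 h against untreated and 1.78 (0.0934) at 48 h against 24 h, and the block changed no call of a member. Without the untreated library 2 and the 48 h library 2, miR-142a-5p reversed to 0.11, -0.18 and -0.29 in the 3 comparisons. Without library 2 of all 3 groups, miR-342-5p at 24 h against untreated became -0.31, miR-142a-5p at 48 h against untreated -0.25, and the 3p share of mir-342 at 48 h against 24 h -4.58 points. miR-223-3p at 48 h against untreated became 0.079 with all counted reads as library size and 0.017 with no filter, and the 3p share of mir-223 at 48 h against 24 h became 0.12 points from pooled counts. When each library was left out, signs changed within these ranges: at 24 h against untreated, -1.59 to 0.12 for miR-223-5p, -1.62 to 0.13 for miR-142a-5p and -0.27 to 0.50 for miR-342-5p; at 48 h against untreated, -1.05 (-1.045) to 1.60 for miR-142a-3p, -0.83 to 0.90 for miR-142a-5p and -0.42 to 0.36 for miR-223-3p; at 48 h against 24 h, -1.26 to 0.16 for miR-223-5p and -0.29 to 1.85 for miR-142a-5p. The same ranges for the 3p share were -3.34 to 7.31 points for mir-142a at 48 h against untreated, and -1.25 to 1.21 points for mir-223 and -3.75 to 9.004 points for mir-342 at 48 h against 24 h. Scaling by all counted reads moved the median log2 fold change of all miRNAs from -0.07 to -0.21, 0.03 to 0.14 and 0.14 to 0.36. The cause of these shifts was not tested.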

Other observations

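The deposited tables also hold rows for precursor families. The mir-223 family had 93, 37 and 17 counts in the untreated libraries, 56, 64 and 9 at 24 h, and 13, 41 and 33 at 48 h, or 1.14 to 6.15 RPM, and it was listed in all 9 libraries. The mir-142 family had 0, 30 and 2 counts untreated, 0, 25 and 0 at 24 h, and 11, 14 and 0 at 48 h, or up to 2.09 RPM. Library 2 had the highest RPM of the untreated and 24 h groups, while at 48 h library 1 had 0.961 RPM and library 2 had 0.750 RPM. The mir-342 family had 1 count, in the 24 h library 1, and the mir-511 family had 0 in all 9 libraries, each of which allows up to 3 counts. Of 5429 predicted miRNA rows, 0 lay on the hairpins of the members.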
